A study of Mus musculus with 4 samples.

Results

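The Dlk1-Meg3 locus on mouse chromosome 12 is an imprinted domain, that is, a stretch of the genome from which some RNAs are made only from the copy inherited from the father and others only from the copy inherited from the mother. Its RNAs were examined here in ribosome profiling (Ribo-seq) libraries of primary mouse myoblasts. All genes that the deposited table places on chromosome 12 with a start between 109450000 and 109800000 (GRCm38) were taken, which gave 103 of the 55573 genes. They comprised 66 microRNA genes, 23 small nucleolar RNA (snoRNA) genes, 6 long noncoding RNA (lncRNA) genes, 4 genes of class misc_RNA, 2 protein-coding genes and 2 unconfirmed gene models (class TEC).

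Primary myoblasts are the cultured progeny of muscle stem cells. They were isolated from the hind-limb muscle of 3-week-old mice and cultured with FGF in proliferation conditions to day 2, and cycloheximide was added to stop ribosomes before lysis in both groups. The WT and KO groups had 2 libraries each. The KO group came from tamoxifen-treated mice in which CreERT2, expressed from Pax7, deletes floxed eIF5A, so that only cells that express Pax7 and their progeny can carry the deletion. The genotype of the WT littermates is described in the study both as Pax7-CreERT2 without the floxed gene and as floxed without Cre, and their tamoxifen treatment was not stated for these libraries. The study describes the Ribo-seq as duplicate experiments, but how many mice or cultures stand behind a library is not given in the sources used here, so all spreads and p-values below measure only the difference between these libraries, which may be technical.

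In this domain, Dlk1, a transmembrane protein related to the Notch ligands, and Rtl1, a protein derived from a retrotransposon, are made from the paternal chromosome. The maternal chromosome makes the lncRNAs Meg3, Rian and Mirg, and with them a large set of microRNAs and C/D box snoRNAs that are cut out of the same transcripts. Methylation of an intergenic control region on the paternal chromosome keeps both programmes apart. The domain is known in muscle from the callipyge phenotype of sheep, a muscle overgrowth caused by a mutation between DLK1 and MEG3. Mature microRNAs pair with mRNAs through the seed, bases 2 to 8 from their 5′ end, and C/D box snoRNAs guide the methylation of other RNAs or, as many from imprinted domains, have no known target.

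Ribo-seq sequences the RNA fragments that remain after RNase I digestion, recovery of ribosome complexes on a resin and size selection on a gel. A read at a microRNA or snoRNA gene shows that a fragment of that RNA passed these steps. Whether a ribosome was bound to it was not measured. Reads were counted per gene, so that the arms of a microRNA hairpin cannot be told apart and a hairpin cannot be told from its mature product.

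The microRNAs that carried most reads are shown here by their mature sequences, because these are the RNAs on which the results below turn. A total of 60 of the 66 microRNA genes had an entry in RefSeq (GRCm38.p6), with 112 mature sequences. The seed is in capitals, and both arms are given for miR-379 and miR-411, whose genes are compared below.
miR-379-5p: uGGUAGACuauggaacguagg
miR-411-5p: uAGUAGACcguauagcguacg
miR-379-3p: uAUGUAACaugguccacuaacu
miR-411-3p: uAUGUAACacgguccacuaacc
miR-381-3p: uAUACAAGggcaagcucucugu
miR-300-3p: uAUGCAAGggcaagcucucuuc
miR-541-5p: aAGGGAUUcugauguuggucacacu
miR-382-5p: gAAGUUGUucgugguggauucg
miR-370-3p: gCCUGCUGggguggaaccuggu
miR-495-3p: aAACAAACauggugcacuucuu
miR-543-3p: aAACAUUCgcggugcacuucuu

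The 3p arms of miR-379 and miR-411 share the seed AUGUAAC, while their 5p arms have different seeds. The 3p arms of miR-381 and miR-300 have different seeds and share a run of 16 bases that starts at base 5 of each. Among the 112 mature sequences 10 seeds were shared by 2 genes. The seed of miR-379-5p was also that of miR-1193-5p, and the seed of miR-370-5p (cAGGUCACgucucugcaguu) also that of miR-1193-3p, and Mir1193 had no read in any library. None of the microRNA genes named above shared a stretch of 26 bases with another microRNA or snoRNA gene.

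The 4 libraries held between 642429 and 704006 recovered reads. The deposited RPKM had been scaled by the authors to an effective library size, and levels are given here as scaled reads, the recovered whole reads divided by the size factors that this scaling implies (0.893 and 0.698 for WT replicates 1 and 2, and 1.34 and 1.20 for KO replicates 1 and 2). Eif5a, the targeted gene, had 50 and 73 reads in WT against 130 and 114 in KO. Its RPKM was 34.9 and 65.2 against 60.3 and 59.4, so the groups overlapped and a loss of Eif5a was not seen where the label says KO. The second group is therefore named by its label, as the KO-labelled libraries. The summed RPKM of all 8 myoblast markers was 242 and 194 in WT against 118 and 130 in the KO-labelled libraries. These sums were carried mainly by Myod1 (140 and 117 RPKM against 48.6 and 79.8) and Des (46.0 and 40.1 against 13.8 and 21.4). Of the 8, Myod1, Des, Pax7, Ncam1 and Myf5 were lower in the KO-labelled libraries without overlap, Itga7 and Cdh15 overlapped, and Vcam1 was higher without overlap. Over the 10930 genes tested below, 20.7% were lower and 21.6% higher without overlap. The 9 fibroblast markers summed to between 273 and 469 in WT and to 351 and 785 in the KO-labelled libraries, the 5 endothelial markers to between 99.8 and 139, the 5 immune markers to between 25.0 and 38.5 and the 5 mural markers to between 110 and 170 (Tagln had 0 reads in all), so markers of other cell types were present throughout. Of these, Pdgfra, Lum, Postn, Pecam1, Tek, Kdr, Emcn, Adgre1 and Csf1r were higher without overlap in the KO-labelled libraries. Thy1, Cd68, Lyz2, Acta2 and Rgs5 were lower without overlap, and the others overlapped. The classes of reads also differed between the groups. Protein-coding genes took 41.5% and 33.9% of the reads in WT against 65.4% and 59.2% in the KO-labelled libraries, microRNA genes 4.30% and 16.8% against 2.31% and 2.85%, and mitochondrial rRNA genes 39.1% and 30.1% against 15.0% and 18.5%. The part of these differences in the results below was not tested. In such bulk samples fewer cells of a type and less RNA per cell cannot be told apart.

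The locus held 3441 reads in all, of which 776 and 1813 were in the WT libraries against 432 and 420 in the KO-labelled libraries. Reads were found for 41 of the 103 genes, and 62 had none in any library. A count of 0 in a library allows up to 3 reads, which are 3.36 and 4.30 scaled reads in the WT libraries against 2.23 and 2.51 in the KO-labelled libraries. This limit and all intervals cover counting error only, since the reads carry no molecular identifiers. The microRNA genes held 3286 of the reads, the snoRNA genes 89, the lncRNA genes 48 and the protein-coding genes 14. The locus was therefore represented almost wholly by its microRNAs.

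**Figure D1:**
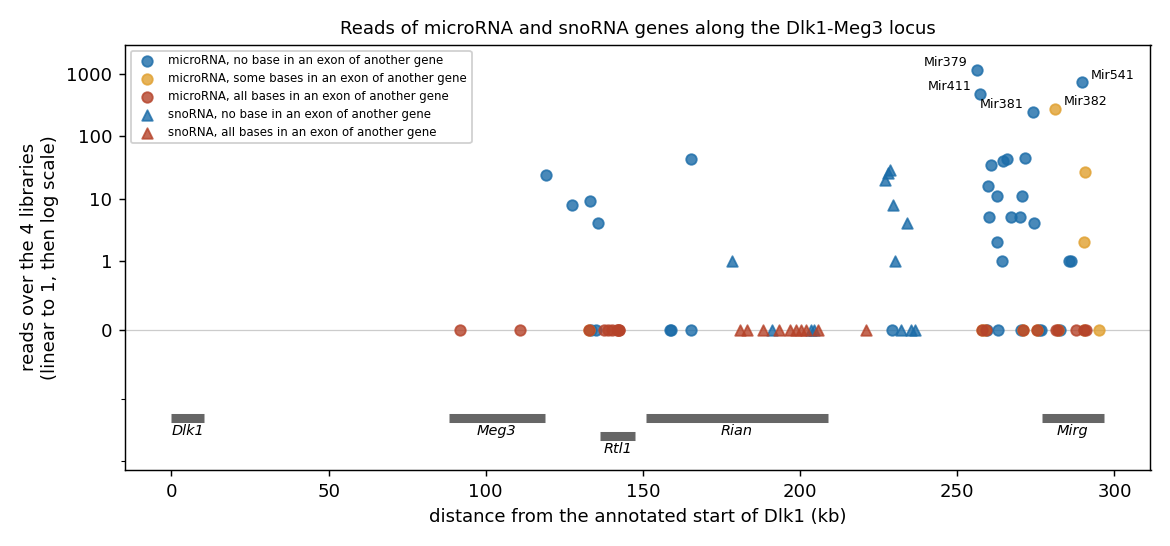
Reads of the 66 microRNA genes (circles) and 23 snoRNA genes (triangles) summed over the 4 libraries (vertical axis, linear to 1 and logarithmic above) against distance from the annotated start of Dlk1 in kb, with grey bars for Dlk1, Meg3, Rtl1, Rian and Mirg. All 29 genes that lie wholly in an exon of another gene (red) sit at 0, and the highest points belong to Mir379, Mir541, Mir411, Mir382 and Mir381.

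The protein-coding genes of the locus had very few footprints. Dlk1 (chr12:109452823-109463336, + strand) had 0 reads in both WT libraries, 7 in KO replicate 1 and 2 in KO replicate 2. In scaled reads these were 0 and 0 against 5.21 and 1.67, a mean of 3.44 ± 2.50 (SD, n = 2) in the KO-labelled libraries. The groups did not overlap, but KO replicate 2 was under the limit that a count of 0 allows, and the mean lay between the limits of the WT libraries, so no fold is given. The exact permutation test (two-sided) gave p = 0.333, the smallest that 2 against 2 libraries can give. Rtl1 (chr12:109589193-109600330, - strand) had 3 and 0 reads in WT against 2 and 0 in the KO-labelled libraries, and its groups overlapped. Neither gene reached the 10 reads over the 4 libraries that the fit across all genes required.

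Of the lncRNAs, Rian had the most reads. Rian (chr12:109603808-109661716, + strand), a host transcript of snoRNAs, had 9 and 6 reads in WT against 13 and 7 in the KO-labelled libraries, or 10.1 and 8.60 against 9.68 and 5.85 scaled reads. The groups overlapped. The log2 difference (the KO-labelled libraries minus WT, on log2(scaled reads + 1), limma) was -0.27 ± 0.61 (SE), its 95% interval ran from -1.57 to 1.03, and the adjusted p was 0.898; its sign was positive when libraries were scaled to total reads (0.28) or to outside microRNA reads (1.72).

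Meg3 (chr12:109541001-109571726, + strand), a maternal lncRNA, had 5 and 2 reads in WT against 3 and 0 in the KO-labelled libraries. Its log2 difference in the same fit was -1.49 ± 1.11, with an adjusted p of 0.668 from limma. It was -2.34 without KO replicate 1, -0.64 without KO replicate 2 and -0.31 under scaling to outside microRNA reads. Mirg, the host of the distal microRNAs, had 3 reads in WT replicate 2 and none in the other libraries. The other lncRNA genes, Gm34081, Gm26906 and B830012L14Rik, had none. Per length these RNAs were low: the RPKM of Rian was between 0.271 and 0.467 and that of Meg3 between 0 and 0.458. Summed over the lncRNA genes the level was 15.7 and 15.8 scaled reads in WT against 11.9 and 5.85 in the KO-labelled libraries, a log2 difference of -0.83 that became 1.27 under scaling to outside microRNA reads (exact permutation test, p = 0.333 and 0.667). It was -0.27 under scaling to total reads (exact permutation test, p = 1), -0.37 without KO replicate 2 and -1.29 without KO replicate 1. As a share of all lncRNA reads, the locus took 0.173% (95% Wilson interval 0.103 to 0.290) and 0.240% (0.134 to 0.430) in WT against 0.196% (0.121 to 0.318) and 0.141% (0.0682 to 0.290) in the KO-labelled libraries, which overlapped.

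The 23 snoRNA genes lie in and behind Rian. Only 7 had reads. Their sequences are shown for the 4 with most reads, as DNA on the + strand from GENCODE vM21 (GRCm38), with the boxes that define the C/D class in capitals, TGATGA searched in the first part of the gene up to its middle and CTGA in the remainder, on the sense strand only.
AF357341: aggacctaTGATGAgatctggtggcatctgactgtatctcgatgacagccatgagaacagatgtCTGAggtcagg
AF357428: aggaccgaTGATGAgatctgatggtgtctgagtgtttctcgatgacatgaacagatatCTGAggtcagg
Gm23736: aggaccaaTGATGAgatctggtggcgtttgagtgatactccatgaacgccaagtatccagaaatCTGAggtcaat
Gm22981: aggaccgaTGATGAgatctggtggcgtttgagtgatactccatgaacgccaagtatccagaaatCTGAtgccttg

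Both boxes were found in 14 of the 23 snoRNA genes of the locus (60.87%), against 22.1% of the 1507 snoRNA genes of the annotation, which also hold H/ACA and other snoRNAs. Gm23736 and Gm22981 share 36 of their 50 stretches of 26 bases, so the division of reads between them is uncertain. All 4 genes lie side by side beyond the end of Rian.

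Of the snoRNA genes, 3 were tested and none was called. AF357341 (chr12:109681519-109681593) had 9 and 1 reads in WT against 12 and 7 in the KO-labelled libraries, Gm23736 (chr12:109680800-109680874) had 6 and 5 against 6 and 9, and AF357428 (chr12:109679945-109680013) had 6 and 0 against 10 and 4. AF357428 reached the 10 reads needed for the test only through the KO-labelled libraries, so that its direction was set in part by this filter. WT replicate 2 was the lowest library for AF357341 and AF357428, and the groups overlapped for all 3 genes, while 57.5% of the 87 snoRNA genes tested outside the locus were lower without overlap. Their log2 differences were 0.67 ± 0.80, -0.22 ± 0.67 and 1.12 ± 1.05 in this order, with adjusted p-values from limma of 0.792, 0.932 and 0.734; that of Gm23736 was positive when libraries were scaled to total reads (0.31) or to outside microRNA reads (1.71). Without WT replicate 2 the log2 differences of AF357341 and AF357428 turned to -0.43 and -0.35, and without KO replicate 1 that of Gm23736 to 0.10. Gm22981 had 4 and 2 against 0 and 2 reads, Gm25854 had 1 and 0 against 0 and 3, and Gm25856 and Gm24564 had a single read each, in KO replicate 1.

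Summed over the 23 genes, snoRNA reads were 26 and 8 in WT against 30 and 25 in the KO-labelled libraries, or 29.1 and 11.5 against 22.3 and 20.9 scaled reads. These overlapped (log2 difference 0.22, exact permutation test p = 1, and -0.41 without WT replicate 2). Outside the locus the summed snoRNA level was 7057 and 3207 scaled reads in WT against 1283 and 1898 in the KO-labelled libraries, and the log2 difference of these sums was -1.61. Of all snoRNA reads, the locus took 0.411% (95% Wilson interval 0.281 to 0.602) and 0.356% (0.181 to 0.702) in WT against 1.71% (1.20 to 2.43) and 1.09% (0.739 to 1.60) in the KO-labelled libraries. This share was higher in both KO-labelled libraries than in both WT libraries, and its intervals did not overlap between the groups, while the number of locus snoRNA reads was highest in KO replicate 1 and lowest in WT replicate 2. Scaled to outside snoRNA reads (added after the values had been seen), the log2 difference of the sum was 1.76 (exact permutation test, p = 0.333).

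The microRNAs were the abundant class. Reads were found for 27 of the 66 genes and 15 had at least 10. Their sum was 732 and 1792 reads in WT against 377 and 385 in the KO-labelled libraries, or 820 and 2569 against 281 and 322 scaled reads. Both WT libraries were above both KO-labelled libraries, and the WT libraries also differed among themselves by more than the KO-labelled libraries did. The means were 1694 ± 1237 and 301 ± 29.1 (SD, n = 2), a ratio of 5.62, and the log2 difference of the sums (mean of log2 values) was -2.27, with an exact permutation p of 0.333. The log2 difference was -1.44 without WT replicate 2, -3.09 without WT replicate 1, -1.65 when libraries were scaled to total reads and 0.071 when they were scaled to the summed reads of microRNA genes outside the locus. Scaled by the median ratio of these genes, which gives each gene the same weight and was added after the values had been seen, it was -0.52, with both WT libraries again higher (exact permutation test, p = 0.333).

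MicroRNAs elsewhere in the genome also had their higher sums in WT. The microRNA genes outside the locus summed to 30433 and 152061 scaled reads in WT and to 11853 and 15177 in the KO-labelled libraries, a log2 difference of -2.34. As a share of all microRNA reads, the locus took 2.62% (95% Wilson interval 2.44 to 2.82) and 1.66% (1.59 to 1.74) in WT against 2.31% (2.09 to 2.56) and 2.08% (1.88 to 2.29) in the KO-labelled libraries. The share was highest in WT replicate 1 and lowest in WT replicate 2, with both KO-labelled libraries between them. The low share in WT replicate 2 came beside a high share of Mir10b, which lies outside the locus and took 23.1% of the microRNA reads there and between 8.39% and 11.9% in the other libraries.

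**Figure D2:**
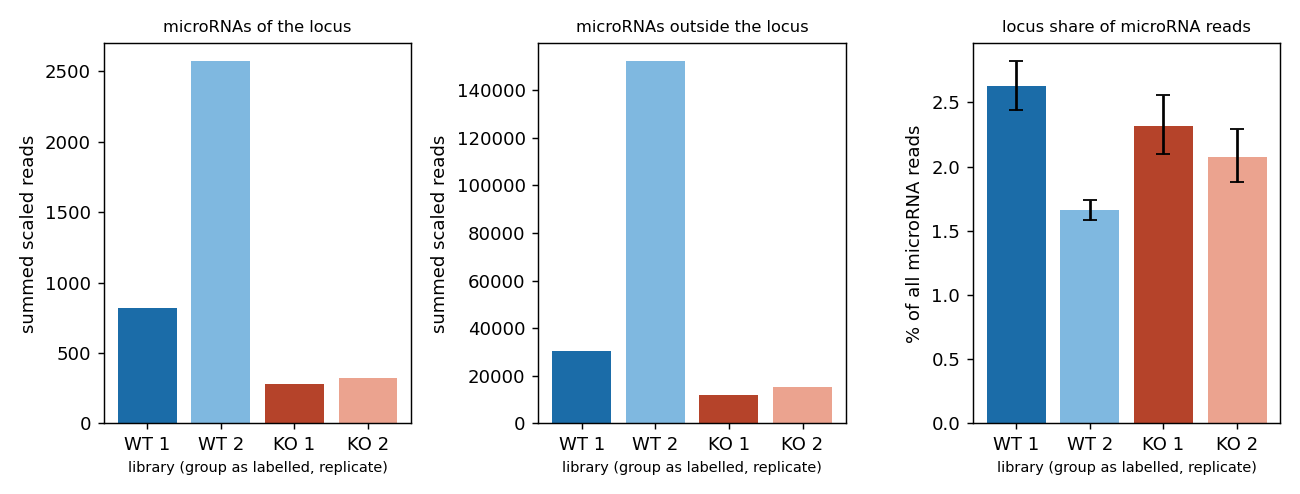
Summed scaled reads of the microRNA genes of the locus (left) and outside it (middle), and the locus's share of all microRNA reads in percent with 95% Wilson intervals (right), in each of the 4 libraries. Both sums are higher in the WT libraries on the authors' scaling (the log2 difference of the locus sum is 0.071 when scaled to the summed outside microRNA reads and -0.52 when scaled to their median ratio), and the shares of the KO-labelled libraries (2.31% and 2.08%) lie between those of WT (2.62% and 1.66%).

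Of the 20 genes of the locus that entered the fit across 10930 genes, 15 were lower and 5 higher in the KO-labelled libraries. Their median log2 difference was -1.25, against 0.04 over all genes tested. On adjusted p (limma, Benjamini-Hochberg over all genes tested, 0.05) only Mir379 was called, and it was lower; 0.146% of all genes tested were called lower and none higher. At an unadjusted p under 0.05, 8 were lower, all of them microRNAs, where 5.79% of all genes tested were. Groups did not overlap for 9 of the 20, all lower, where the share over all genes tested was 20.7% for lower and 21.6% for higher. Separation by at least 2-fold between the nearest libraries of the groups (in scaled reads + 1) was found for 5, all lower, Mir379, Mir382, Mir381, Mir329 and Mir673, where 2.64% of all genes tested were separated so and lower and 1.61% higher. Mir329, Mir673, Mir543 and Mir369 reached the 10 reads needed for the test only through WT, so that their lower level was set in part by this filter. Without them 16 genes were left, of which 5 had an unadjusted p under 0.05, 6 did not overlap, and 3 (Mir379, Mir382 and Mir381) were separated 2-fold. The shares over all genes tested still hold genes of this kind. Mir323 and AF357428 reached the 10 reads only through the KO-labelled libraries, and both were higher.

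These counts are read against the 134 microRNA genes outside the locus that were tested. Of the 15 tested in the locus 12 were lower, with a median log2 difference of -1.37, and of the 134 outside it 124 were lower, with a median of -1.60. Outside the locus 4.48% were called lower, 53.7% had an unadjusted p under 0.05 (53% lower), 64.9% did not overlap and were lower, and 28.4% were separated 2-fold and lower. In the locus the counts were 1, 8, 8 and 5 of 15, from which nothing particular to the locus is read. Without the 4 genes that were tested only through WT they were 1, 5, 5 and 3 of 11, while the outside shares still hold genes of this kind. Under scaling to outside microRNA reads the medians were 0.51 in the locus and 0.53 outside it, so both medians changed sign under this scaling.

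Most of the signal came from the distal cluster that runs from Mir379 to Mir410 and, counted with it, Mir3072 beyond Mir410, with 3198 reads over 44 genes, of which 22 had reads (715 and 1757 in WT against 358 and 368). The 8 microRNA genes close to Meg3 had 45 reads over 4 genes, the 4 in the Rian region had reads of Mir370 alone, and the 7 within the Rtl1 exon had none. The top 5 genes, Mir379, Mir541, Mir411, Mir382 and Mir381, held 2944 of the 3286 microRNA reads of the locus, or 89.6%. In RPKM, which compares genes per length, Mir379 was highest in every library, with 8746 and 20904 in WT against 1704 and 1613 in the KO-labelled libraries. Mir541 followed in WT with 2378 and 10424 RPKM, and in the KO-labelled libraries Mir411 (1224 and 1117 RPKM) and Mir541 (845 and 1431) changed places.

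Mir379 (chr12:109709060-109709125, + strand), the first microRNA of the cluster, had 348 and 650 reads in WT against 102 and 86 in the KO-labelled libraries. In scaled reads these were 390 and 932 against 76.0 and 71.9, so both WT libraries were far above both KO-labelled libraries. Its log2 difference was -3.01 ± 0.49, its 95% interval ran from -4.05 to -1.97, and the adjusted p was 0.0253 (limma). The log2 difference hardly moved without KO replicate 1 (-3.05) or KO replicate 2 (-2.97). It was -3.64 without WT replicate 1 and -2.38 without WT replicate 2. Whether Mir379 was called depended on the library left out. Such a fit has 1 library in a group and takes its spread from the other group alone, so no p-value is given for it. Among the alternatives that kept all 4 libraries the adjusted p ranged from 2.67e-08 to 0.665. The log2 difference was -0.68 when libraries were scaled to outside microRNA reads, which was the smallest of all alternatives.

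Mir382 (chr12:109733771-109733846), which overlaps an exon of Mirg by 2.63% of its length, had 56 and 180 reads in WT against 17 and 27 in the KO-labelled libraries. Its log2 difference was -2.84 ± 0.58, with an adjusted p of 0.0697 from limma. Leaving out 1 library moved it between -3.85 (without WT replicate 1) and -1.83 (without WT replicate 2), and it was -0.56 when libraries were scaled to outside microRNA reads. Mir381 (chr12:109726822-109726896) had 75 and 107 against 34 and 34 reads. Its log2 difference was -2.04 ± 0.45, with an adjusted p of 0.0950, and 0.25 when libraries were scaled to outside microRNA reads. It was -2.47 without WT replicate 1 and -1.61 without WT replicate 2. Both genes were separated between the groups on the authors' scaling, and both missed the threshold.

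Mir541 (chr12:109742409-109742498), in an intron of Mirg, had 129 and 442 reads in WT against 69 and 104 in the KO-labelled libraries. Its log2 difference was -2.16 ± 0.58, with an adjusted p of 0.217, and 0.16 under scaling to outside microRNA reads. Mir411 (chr12:109710175-109710256), which starts 1115 bases after Mir379, had 72 and 247 reads in WT against 91 and 74 in the KO-labelled libraries. The raw counts of Mir411 thus overlapped, and in scaled reads the groups came apart by little, with 80.7 in the lower WT library and 67.8 in the higher KO-labelled library. Its log2 difference was -1.37 ± 0.56, with an adjusted p of 0.459, and 0.95 under scaling to outside microRNA reads. Without WT replicate 1 the log2 differences of Mir541 and Mir411 were -3.22 and -2.43, and without WT replicate 2 they were -1.10 and -0.31.

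Of the genes with fewer reads, Mir329 (chr12:109713481-109713577) had 12 and 16 reads in WT against 5 and 2 in the KO-labelled libraries, and Mir673 (chr12:109571990-109572080), close to the end of Meg3, had 8 and 12 against 3 and 1. Their log2 differences were -2.39 ± 0.66 and -2.47 ± 0.77 with adjusted p-values from limma of 0.251 and 0.353, and -0.41 and -0.65 under scaling to outside microRNA reads. Mir495 had 4 and 26 against 5 and 8 reads, and Mir543 had 3 and 31 against 1 and 5. In scaled reads the lower WT library of each lay between the KO-labelled libraries, and neither passed (log2 differences -1.27 and -2.23, adjusted p = 0.604 and 0.480 in limma). Without WT replicate 1 the log2 differences of Mir495 and Mir543 were -2.67 and -3.92, and without WT replicate 2 they were 0.14 and -0.54. Those of Mir329 were -2.75 and -2.02 under these omissions. Mir369, Mir494 and Mir376b had negative log2 differences between -1.24 and -1.06, and Mir323 one of 0.17, none of which passed, and under scaling to outside microRNA reads all 4 were positive, between 0.51 and 2.03. Without WT replicate 2 those of Mir494 and Mir376b turned positive, that of Mir376b by very little. Of the 15 microRNA genes tested 6 were positive without WT replicate 2, and none without WT replicate 1. The remaining 12 microRNA genes with reads had between 1 and 9 reads in all and were not tested. Mir540 had 2 and 6 in WT against 1 and 0, Mir493 had 3 and 3 against 1 and 1, and all 4 reads of Mir3070b were in the KO-labelled libraries.

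Mir300, Mir370 and, with fewer reads, Mir323 had small positive log2 differences where the other microRNAs tested had negative ones. Mir323 had 1 and 5 reads in WT against 7 and 3, and its groups overlapped. Mir300 (chr12:109724313-109724391), which starts 2509 bases before Mir381, had 4 and 13 reads in WT against 14 and 14 in the KO-labelled libraries, and Mir370 (chr12:109618258-109618336), in an intron of Rian and far from the cluster, had 4 and 14 against 13 and 12. In scaled reads both overlapped between the groups, with WT replicate 1 lowest and WT replicate 2 highest. The log2 differences were 0.22 ± 0.65 for Mir300, with an interval from -1.17 to 1.60, and 0.01 ± 0.67 for Mir370, with an interval from -1.40 to 1.43 (limma, adjusted p = 0.930 and 0.997). They were -0.70 and -0.96 without WT replicate 1, and 1.14 and 0.99 without WT replicate 2. Under scaling to outside microRNA reads they were 2.35 and 2.15, and both genes were then separated 2-fold and higher in the KO-labelled libraries, without passing (adjusted p = 0.204 and 0.212 in limma). The same scaling moved the median over all genes tested to 2.07. It left 4449 of 10930 genes tested, and 11 of 134 microRNA genes outside the locus, separated 2-fold and higher.

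**Figure D3:**
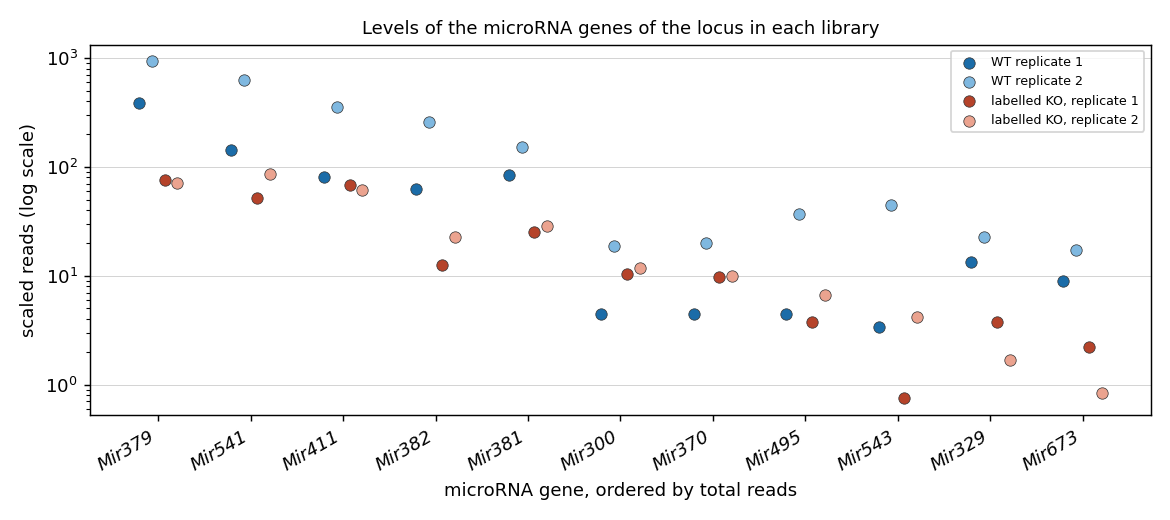
Scaled reads on a log scale in each of the 4 libraries for the 11 microRNA genes of the locus with at least 40 reads or separated 2-fold. Mir379, Mir382, Mir381, Mir329 and Mir673 have both WT libraries at least 2-fold above both KO-labelled libraries on the authors' scaling, a separation that none of them keeps under scaling to outside microRNA reads, and Mir300 and Mir370 have overlapping groups.

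To compare the genes without any scaling between libraries, the reads of each were taken as a share of the microRNA reads of the locus in the same library, a measure added after the values had been seen. This was done for the 9 genes with at least 40 reads. Shares sum to a whole, so a gene can only gain where others lose. A total of 3 genes had a higher share in both KO-labelled libraries, 2 a lower share and 4 overlapped; of the 92 microRNA genes outside the locus with at least 40 reads, taken as a share of the outside microRNA reads, 31.5% were higher without overlap and 14.1% lower.

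Mir379 took 47.5% (95% Wilson interval 43.9 to 51.2) and 36.3% (34.1 to 38.5) of the locus microRNA reads in WT against 27.1% (22.8 to 31.8) and 22.3% (18.5 to 26.8) in the KO-labelled libraries. Mir382 took 7.65% and 10.0% in WT against 4.51% and 7.01% in the KO-labelled libraries, where the nearest intervals overlapped. Mir411 went the other way, with 9.84% (7.88 to 12.2) and 13.8% (12.3 to 15.5) in WT against 24.1% (20.1 to 28.7) and 19.2% (15.6 to 23.5) in the KO-labelled libraries. Mir300 took 0.546% (0.213 to 1.40) and 0.725% (0.424 to 1.24) against 3.71% (2.23 to 6.14) and 3.64% (2.18 to 6.01), and Mir370 took 0.546% (0.213 to 1.40) and 0.781% (0.466 to 1.31) against 3.45% (2.03 to 5.81) and 3.12% (1.79 to 5.37). Mir300 and Mir370 were at least 2-fold higher in every pair of libraries, which was so for 6.52% of the outside microRNA genes. The shares of Mir541 (17.6% and 24.7% against 18.3% and 27.0%) and Mir381 (10.2% and 5.97% against 9.02% and 8.83%) overlapped, as did those of Mir495 and Mir543.

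**Figure D4:**
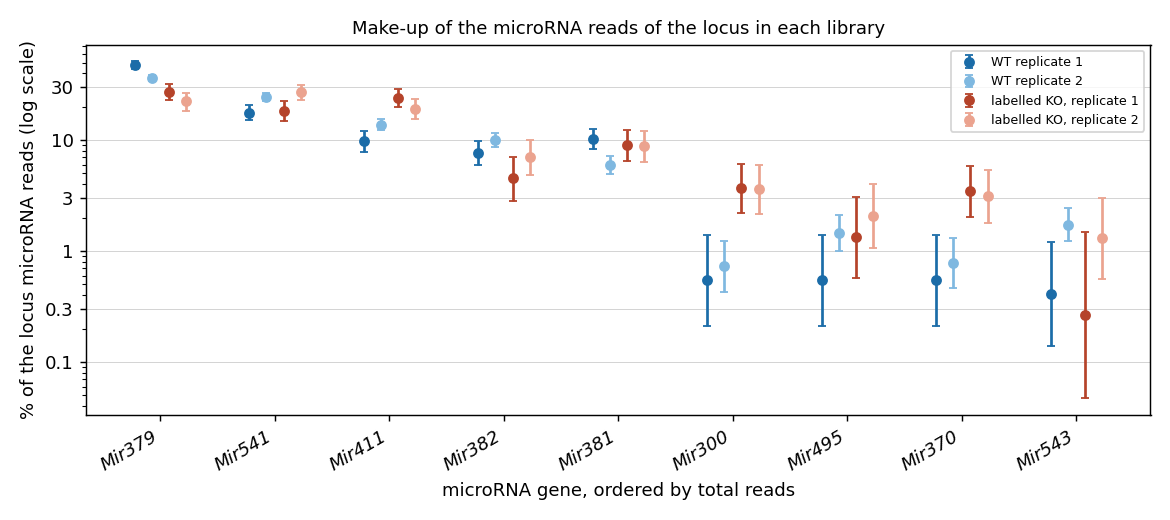
Share of the microRNA reads of the locus (percent, log scale) taken by each of the 9 microRNA genes with at least 40 reads, in each library, with 95% Wilson intervals. The share of Mir379 is 47.5% and 36.3% in WT and 27.1% and 22.3% in the KO-labelled libraries, and those of Mir411, Mir300 and Mir370 are higher there.

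As examples of the make-up, the ratios of 4 pairs of genes are given. Mir379 had 4.83 and 2.63 reads for each read of Mir411 in WT against 1.12 and 1.16 in the KO-labelled libraries. The starts of these genes are 1115 bases apart, and they share the seed of their 3p arms. Mir381 had 18.8 and 8.23 reads for each read of Mir300 in WT and 2.43 in both KO-labelled libraries. Their starts are 2509 bases apart. The ratio of Mir379 to Mir541 overlapped between the groups, with 2.70 and 1.47 in WT against 1.48 and 0.827 in the KO-labelled libraries. The ratio of Mir541 to Mir382, whose starts are 8638 bases apart, was 2.30 and 2.46 in WT against 4.06 and 3.85 in the KO-labelled libraries. These 4 pairs were picked with their values known; ratios of other pairs were not computed, and no test is given.

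The genes without reads were not spread evenly over the locus. Of its 89 microRNA and snoRNA genes, 49 have no base in an exon of another gene, and 31 of these had reads. A further 29 lie wholly in such an exon, and none of these had a read. The remaining 11 overlap an exon in part, and 3 had reads, Mir382, Mir369 and Mir412, of which Mirg exons cover 2.63%, 1.27% and 15.0%. The same was seen outside the locus, where 242 of 1577 microRNA genes with no other exon had reads (15.35%) and none of 384 that lie wholly in an exon, and 124 of 1264 snoRNA genes (9.81%) against 1 of 160 (0.625%).

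In the locus the genes with no read by this measure include all 7 microRNAs within the exon of Rtl1. Of these Mir431, Mir433, Mir127, Mir434, Mir432 and Mir136 are antisense to Rtl1, and microRNAs of this group are known to direct the cleavage of its mRNA, while Mir3071 is on the strand of Rtl1. They also include Mir410, Mir485 and Mir377 in exons of Mirg, 10 snoRNA genes, most of them in exons of Rian, and pairs annotated over each other on opposite strands, such as Mir409 with Gm24321. How the counting treated strand and reads that match several features is not given in the sources used here. A count of 0 at the 29 genes that lie wholly in an exon of another is therefore no measure of their RNA, while the 18 genes with no overlapping exon and no read were under the limit that a count of 0 allows.

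Genes of the surrounding pathways were followed by lists. Of 14 regulators of the locus and of imprinting, 12 were tested, and none was called (limma, adjusted p) or had an unadjusted p under 0.05, where 0.146% of all genes tested were called and 9.69% had such a p, so that little can be read from a count of 0 among 12. The median log2 difference of the list was 0.14. Trim28, the co-repressor that keeps imprints together with Zfp57, had 115 and 158 reads in WT against 236 and 234 in the KO-labelled libraries (log2 difference 0.12 ± 0.46). Dnmt1, which copies DNA methylation at replication, had 34 and 27 against 117 and 74 reads (0.92 ± 0.44, adjusted p = 0.517), and Mef2d, of the MEF2 family of transcription factors, had 81 and 41 against 39 and 64 (-0.87 ± 0.47, adjusted p = 0.562).

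Of 13 names listed for the maturation of microRNAs and snoRNAs, 12 were found among the genes, and all 12 were tested. None was called, and 2 had an unadjusted p under 0.05 (limma), both higher, with a median over the list of -0.26. Under this rule 9.69% of all genes tested passed in either direction. Xpo5, which exports microRNA hairpins from the nucleus, had 31 and 25 reads in WT against 120 and 93 in the KO-labelled libraries (1.22 ± 0.43, adjusted p = 0.405). Nop58, a core protein of C/D box snoRNA particles, had 23 and 50 against 116 and 117 reads (1.08 ± 0.50, adjusted p = 0.509). Drosha and Dicer1, which cut microRNA precursors, had 24 and 19 against 19 and 19 reads and 43 and 13 against 30 and 25 reads. Ago2, which binds mature microRNAs, had 102 and 37 against 42 and 61, and none of the 3 passed. In scaled reads Drosha was at 26.9 and 27.2 against 14.1 and 15.9. The log2 differences were -0.81 ± 0.48 for Drosha, -0.46 ± 0.52 for Dicer1 and -0.95 ± 0.48 for Ago2. Of the list, 2 genes were lower without overlap (Drosha and Ago2) and 2 higher (Xpo5 and Nop58), where 20.7% and 21.6% of all genes tested were.

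Among 23 other imprinted genes 17 were tested, none was called, and 4 had an unadjusted p under 0.05, all lower, where 5.79% of all genes tested did. One of these, Igf2, had enough reads to be tested only through WT, so that its direction was set by the filter, and the count without it was 3. Their median log2 difference was -0.50. H19, a maternal lncRNA and microRNA host, had 376 and 23 reads in WT against 18 and 30 in the KO-labelled libraries (-2.63 ± 0.79, adjusted p = 0.327), so that most of its reads were in WT replicate 1. Igf2, the paternal growth factor gene beside H19, had 15 and 1 against 0 and 0, and Peg3, a paternal zinc finger gene, had 109 and 30 against 39 and 21 (-1.64 ± 0.52, adjusted p = 0.372). The last was Gnas, with 17 and 23 against 2 and 23 reads. Dio3, which belongs to the same imprinted domain beyond the window, had 1 and 0 against 0 and 2 reads and was not tested.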

How the data were processed

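Ribo-seq libraries of primary mouse myoblasts, 2 WT and 2 labelled eIF5A KO, were grouped by their labels. Per the study's methods, the authors removed low-quality, adapter, rRNA and tRNA reads, aligned single-end reads with TopHat2 (build mm10, per the submitters' processing notes) and counted genes of Ensembl models with HTSeq. Strand setting, overlap mode and multiple matches were not given in the sources used here.

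The deposited values were RPKM, which the authors had scaled to an effective library size. RPKM multiplied by gene length gave whole reads for 100% of values (tolerance 0.01). Recovered reads were divided by the implied size factors and tested with limma 3.58.1 (R 4.3.3; lmFit, eBayes with trend) on log2(scaled reads + 1), over 10930 genes with at least 10 reads in the 4 libraries. P-values were adjusted over all genes tested (Benjamini-Hochberg, 0.05). The script was tested on simulated data. Log2 differences with a pseudocount understate the change of low genes. Sums were compared by exact permutation tests (two-sided), and shares have 95% Wilson intervals. Members were matched to GENCODE vM21 (103 of 103, 102 at the same position), and sequences came from RefSeq and vM21.

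The members and lists were chosen with earlier results of these data known. The genes named are all protein-coding and lncRNA members, small RNAs with at least 40 reads, and those called or separated 2-fold. The snoRNA and microRNA genes with fewer reads, the 4 ratios and single genes of the lists were named after their values were seen. Alternatives were other pseudocounts, filters, scalings, models, a replicate block and leaving out each library. Their effects are given at the end. No comparison columns were used.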

Additional observations from a re-analysis of the deposited data

How the results depend on the processing

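With 2 libraries a group, 1 library left out leaves an arm with a single library that is assumed to vary like the other arm, and 642429 to 704006 reads a library limit most members to a few reads. The number of members called was 1 as reported. It was 2 with a pseudocount of 5 scaled reads (Mir379 and Mir382), 4 without a filter, 4 with limma-voom and 4 with a replicate block (Mir379, Mir381, Mir382 and Mir541 each time), and 0 with at least 40 reads, scaling to total reads, scaling to outside microRNA reads, noncoding genes only or no variance trend. With log2(RPKM + 1) it was 1, but the gene was Mir679, which has 2 reads. Over all genes tested 16 were called as reported, 25 with a pseudocount of 5, 128 of 18961 without a filter, 76 with limma-voom and 185 with a replicate block. Of the microRNA genes outside the locus 6 of 134 were called as reported. In the same order the alternatives called 11 of 134, 45 of 264, 33 of 134 and 54 of 134. Which members were called also changed when 1 library was left out. That count is not given, since a group of 1 library has no spread of its own. The number separated 2-fold was 5 as reported, 9 with log2(RPKM + 1), 8 without a filter, 3 with at least 40 reads, 3 with outside microRNA scaling (Mir300, Mir323 and Mir370, all higher) and 6 to 14 with a library left out (14 without WT replicate 1). Scaling to total reads moved the median log2 difference of all genes to 0.59, and scaling to outside microRNA reads to 2.07. Under the latter the sign was reversed for the summed microRNAs (0.071), the summed lncRNAs (1.27), Rian (1.72), Mir411 (0.95), Mir495 (0.86), Mir381 (0.25), Mir541 (0.16), Gm23736 (1.71), Mir369 (0.78), Mir494 (0.56) and Mir376b (0.51), while a median ratio over the outside microRNA genes, added later, gave -0.52 for the summed microRNAs. Rian was also reversed with total reads (0.28) and without KO replicate 2 (0.050; -0.59 without KO replicate 1), Mir370 with a pseudocount of 5 (-0.053), without WT replicate 1 (-0.96) and without KO replicate 2 (-0.0089; 0.99 without WT replicate 2), Mir495 without WT replicate 2 (0.14; -2.67 without WT replicate 1), Mir300 without WT replicate 1 (-0.70; 1.14 without WT replicate 2), Mir323 without WT replicate 1 (-0.81) and KO replicate 1 (-0.25), AF357341 (-0.43) and AF357428 (-0.35) without WT replicate 2, Gm23736 without KO replicate 1 (0.10) and with total reads (0.31), and the summed snoRNAs without WT replicate 2 (-0.41; the other omissions ranged up to 0.86). Mir494 and Mir376b were also reversed without WT replicate 2. The cause of these reversals was not tested. The replicate numbers were not shown to pair the libraries (correlation of the replicate 1 deviations across 10930 genes 0.088, and only 2 pairs), and in this balanced design the block cannot change a difference of group means, which stayed by construction at -2.27 for the microRNAs, 0.22 for the snoRNAs and -0.83 for the lncRNAs. For Dlk1, with 0 reads in both WT libraries, no difference is given.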
